A study of Mus musculus with 8 samples.

Results

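Among 15558 fibroblasts of the colon assembloid stroma, 102 cells carried the transcripts of Mfap5, Crabp1 and Gdf10 together and met limits on BMP and cycling genes. These cells were chosen by their raw UMI counts. A UMI is a molecular identifier that marks 1 captured transcript. A cell was taken where it had at least 500 genes and at most 10% mitochondrial UMIs, at least 3 UMIs of Col1a2, no UMI of Epcam and at least 1 UMI of each of the 3 markers. Cells with UMIs in 2 or more of Bmp2, Bmp5, Bmp7 and Adamdec1 were left out, as were cells with at least 2 UMIs each of Mki67 and Top2a. Before these limits on BMP and cycling genes, all 3 markers were found in 75 fibroblasts of the first and 73 of the second stromal library. The rule kept 52 of 7073 fibroblasts in the first stromal library, which was 0.735% (95% exact binomial interval 0.550 to 0.963), and 50 of 8485 in the second, which was 0.589% (0.438 to 0.776). The cells kept by the whole rule are called triple-positive fibroblasts here. The comparison cells were the 4834 and 6407 fibroblasts that met the same limits on Col1a2 and Epcam and had no UMI of any marker.

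Fibroblasts of the gut wall form the matrix around the crypts and send them growth factors. Subepithelial telocytes are known as a source of BMPs and non-canonical Wnt ligands, and the trophocytes below the crypt base as a source of R-spondins and BMP antagonists. Mfap5 encodes a glycoprotein of the microfibrils on which elastic fibres are built, Crabp1 a cytosolic binding protein of retinoic acid and Gdf10 a secreted member of the TGF-beta superfamily. On GRCm38, Mfap5 lies on chromosome 6 at 122505845 to 122529290, Crabp1 on chromosome 9 at 54764748 to 54773110 and Gdf10 on chromosome 14 at 33923587 to 33937983, all on the plus strand.

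The study built assembloids from colon organoids and cultured stromal cells of C57BL/6 mice and profiled their cells with the 10x Genomics 3' assay. The stroma was grown from 2 male mice of 6 to 12 weeks, expanded in culture and mixed into Matrigel droplets with organoids. The droplets were kept for 4 to 5 days in medium without Wnt surrogate, CHIR-99021, R-spondin 1 and noggin, and their EpCAM-negative cells were profiled in 2 libraries. The base medium still held the growth factor EGF and the compound A83-01. The cells analysed here had thus been cultured before assembly, carried no transgene named in the labels and had no untreated tissue stroma beside them. The stromal libraries held 9516 and 9411 barcodes and 164072756 and 141478777 UMIs, of which 9020 and 9048 cells passed the limits on genes and mitochondrial UMIs. They shared 30 barcodes with each other, and 3 and 5 of the triple-positive cells had a barcode that also occurred in another library. The 2 libraries differed beyond counting error, with a mean chi-square per gene of 241.

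The markers were read from few transcripts. In the first library the triple-positive cells held a lowest, median and highest count of 1, 3 and 45 UMIs of Mfap5, 1, 3.5 and 141 of Crabp1 and 1, 2 and 22 of Gdf10. In the second library the counts were 1, 4 and 16 for Mfap5, 1, 2 and 96 for Crabp1 and 1, 2 and 20 for Gdf10. Exactly 1 UMI of at least 1 marker was found in 38 of 52 and 33 of 50 cells, so most of the cells stood at the edge of the rule. The cell with the most Crabp1 gave 24.4% of all Crabp1 UMIs of the triple-positive cells in the first library and another gave 25.1% in the second. The cells were deep, with a median of 18752.5 and 21118 UMIs against 13730.5 and 12514 in the marker-free fibroblasts. With the rule read on cells thinned to 5000 UMIs, the 21 and 12 cells it kept had a median depth before thinning of 18316 and 21531 UMIs, against 14656 and 12917 in marker-free cells. The mitochondrial share was 3.91% and 4.14%, beside 3.92% and 4.16% in the marker-free cells.

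**Figure D1:**
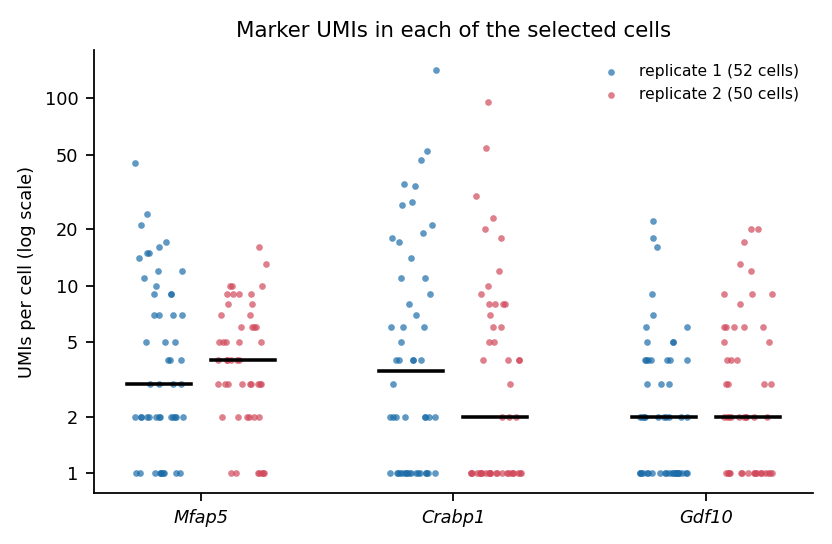
UMIs of Mfap5, Crabp1 and Gdf10 in each triple-positive fibroblast, on a log scale, with 52 cells of the first and 50 cells of the second stromal library as points. Most cells held 1 to 5 UMIs of a marker, and the highest count was 141 UMIs of Crabp1 in 1 cell.

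A marker was found more often in cells that had both other markers than in cells that had neither, also where depth was made equal. Each fibroblast was thinned to 5000 UMIs for this count. Mfap5 was then found in 19 of 32 cells that had both Crabp1 and Gdf10 in the first library (59.4%) and in 594 of 6297 cells that had neither (9.43%). In the second library it was found in 12 of 34 (35.3%) and in 392 of 7624 cells (5.14%). Gdf10, the rarest marker of the first library, was found in 11.7% of cells with both other markers against 2.04% with neither, and in 13.8% against 5.24% in the second library. These shares describe the genes of the rule and carry no test.

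Levels were compared as CPM, the UMIs of a gene scaled to the summed UMIs of a class in each library after the TMM normalization of edgeR, which gives each class 2 values. A difference is given as log2 fold change with its standard error, and it was called at an adjusted p under 0.05 in edgeR's quasi-likelihood test. Of 14318 genes tested outside the rule, 134 (0.936%) were called higher and 140 (0.978%) lower in the triple-positive than in the marker-free fibroblasts, together 274 (1.91%). An unadjusted p under 0.05 was found for 2589 (18.1%). Since each library holds both classes from the same cultures, a fit with the library as a block was run beside it, and it called 703 genes higher (4.91%) and 787 lower (5.5%), together 10.4%. All 274 genes of the first fit were among them. The marker-free fibroblasts also held cycling cells and BMP-positive cells, which the rule had removed from the triple-positive ones. Where the comparison cells were held to the same limits, 58 genes were called higher (0.426% of 13623) and 26 lower (0.191%), together 0.617%. With the block in addition it was 622 (4.57%) and 531 (3.9%), together 8.46%.

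Of the called genes whose log2 CPM averaged 5 or more, Prrx1 rose most. It encodes a homeobox transcription factor of limb and craniofacial mesenchyme and lies on the minus strand of chromosome 1 at 163245119 to 163313710 (GRCm38). It stood at 560 and 462 CPM in the triple-positive cells and at 47.4 and 27.8 CPM in the marker-free cells. The log2 fold change was 3.77 ± 0.30 (adjusted p = 0.0198). All triple-positive values lay above all others, which was a condition for the choice of the largest rises. At least 1 UMI of Prrx1 was found in 50 of 52 and in 50 of 50 triple-positive cells. Thinned to 5000 UMIs, 80.8% and 84% of them had a Prrx1 UMI, against 13.1% and 8.51% of marker-free fibroblasts. Cells without a Col1a2 UMI gave 14.8% and 12.5% at that depth (median depths before thinning 12070 and 7032 UMIs), which was not below the share in the marker-free cells. Whether these cells held Prrx1 transcripts of their own was not tested.

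Cpxm1, a secreted carboxypeptidase-like protein encoded on chromosome 2 at 130390775 to 130397574 on the minus strand, was at 1182 and 1009 CPM against 80.1 and 94.7 CPM. The log2 fold change of 3.65 ± 0.16 (adjusted p = 0.00557) stayed called with equal limits on both classes (3.11, adjusted p = 0.00628), as did that of Prrx1 (3.41, adjusted p = 0.0288). Thy1, the surface protein CD90, was at 674 and 418 CPM against 98.7 and 57.1 CPM, a log2 fold change of 2.81 ± 0.36 (adjusted p = 0.0347). Cd248, the fibroblast surface protein endosialin, was at 132 and 116 CPM against 24.8 and 30.5 CPM (2.16 ± 0.17, adjusted p = 0.0191). Both surface genes were thus higher in each library than in either sum of the marker-free cells, which the choice of the largest rises required. With equal limits, Cd248 stayed called (adjusted p = 0.0288) and Thy1 did not (0.0616, and 1.53e-13 with the block).

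The other 8 of the 12 largest rises among called genes were of mixed kinds. Igfbp6, a binding protein that prefers IGF2, was at 357 and 153 CPM against 24 and 19.1 CPM (log2 fold change 3.56 ± 0.42, adjusted p = 0.0321). Cthrc1, a secreted protein of remodelling tissue, was at 237 and 184 CPM against 26.5 and 12.4 CPM (3.44 ± 0.41, adjusted p = 0.0321). Inhbb, the beta B subunit of activins, was at 373 and 379 CPM against 88.7 and 56.6 CPM (2.37 ± 0.24, adjusted p = 0.0258). Igfbp6 differed more than 2-fold between the libraries and missed the threshold with equal limits (adjusted p = 0.0535, and 7.26e-12 with the block). Col5a3, a chain of collagen V, was at 122 and 86.8 CPM against 25.7 and 20.7 CPM (2.17 ± 0.22, adjusted p = 0.0254). The other genes of this group rose by 2.79 on the log2 scale for Gxylt2, a xylosyltransferase of Notch, 2.24 for Flrt2, a transmembrane adhesion protein, 2.18 for the tetraspanin Tspan11 and 2.13 for the adenosine receptor Adora2b.

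The transcription factor genes Pitx1, Tcf21, Foxf1 and Nkx2-3, which are known from gut mesenchyme, were called lower. Pitx1, a homeobox factor of hindlimb and hindgut, was at 12.9 and 13.6 CPM against 98.5 and 156 CPM, a log2 fold change of -3.26 ± 0.34 (adjusted p = 0.0258). Tcf21, a basic helix-loop-helix factor of visceral mesenchyme, was at 35.1 and 40.7 CPM against 186 and 303 CPM (-2.69 ± 0.30, adjusted p = 0.0292). Foxf1, a forkhead factor that gut mesenchyme needs to form, was at 32.3 and 41.6 CPM against 135 and 130 CPM (-1.84 ± 0.16, adjusted p = 0.0205). Nkx2-3, a homeobox factor of gut and spleen mesenchyme, was at 29.6 and 34.3 CPM against 97.7 and 138 CPM (-1.88 ± 0.24, adjusted p = 0.0348). No triple-positive value of these 4 genes reached a marker-free value, which the choice of the largest falls required of Pitx1 and Tcf21. The share of all genes without overlap is not given, so this adds nothing to the calls. With the comparison cells held to the same limits, Foxf1 stayed called (adjusted p = 0.0386), whereas Pitx1 (0.062), Tcf21 (0.0535) and Nkx2-3 (0.062) missed the threshold without the block and passed it with the block (6.01e-09, 1.74e-10 and 5.99e-08).

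The 4 factors were also counted by cell, which describes the same transcripts and is no further test. None of the 4 factors had a UMI in 16 of 52 and 11 of 50 triple-positive cells, against 4.24% and 1.92% of marker-free fibroblasts. At least 3 of the 4 were found in 7 and 14 triple-positive cells (13.5% and 28%) and in 61.9% and 71.6% of marker-free cells, although the latter were shallower. At 5000 UMIs, Tcf21 was found in 13.5% and 26% of triple-positive cells against 49.9% and 66.1%, Foxf1 in 13.5% and 18% against 44.5% and 42.1%, Nkx2-3 in 7.69% and 14% against 35.7% and 45.4% and Pitx1 in 5.77% and 6% against 32.4% and 46.9%. In cells without a Col1a2 UMI the shares were 4.82% and 0% for Tcf21, 1.29% and 2.08% for Foxf1, 1.93% and 2.08% for Nkx2-3 and 0.965% and 1.04% for Pitx1. All triple-positive cells had 5000 UMIs or more, so none was lost by thinning.

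**Figure D2:**
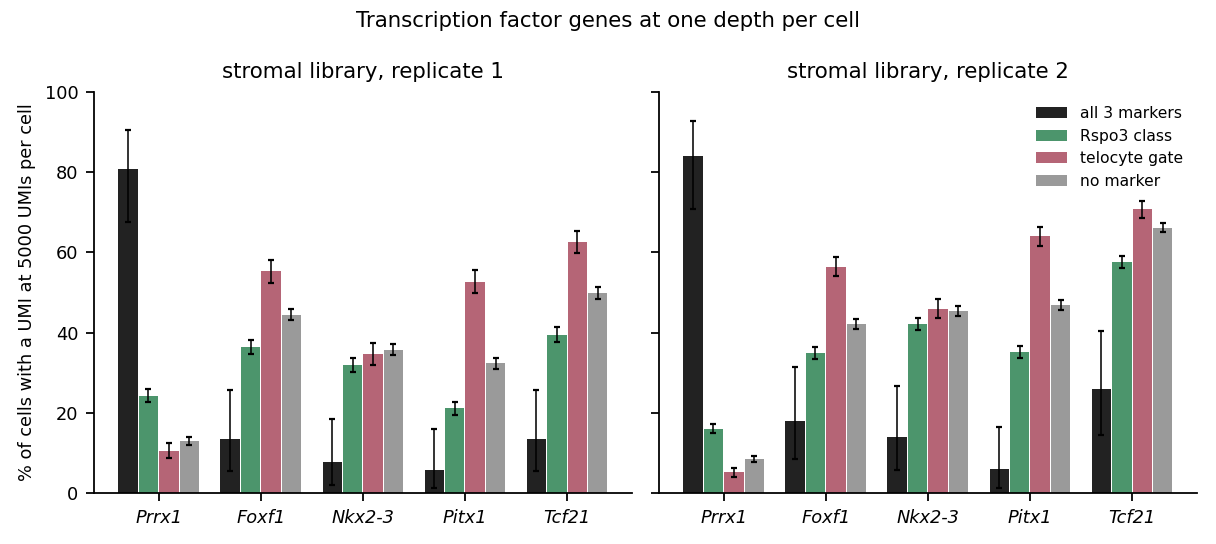
Percent of cells with at least 1 UMI of Prrx1, Foxf1, Nkx2-3, Pitx1 and Tcf21 after each cell was thinned to 5000 UMIs, in the triple-positive fibroblasts, the Rspo3 class, the telocyte gate and the marker-free fibroblasts of each stromal library, with exact 95% binomial intervals for counting error. Prrx1 was found in 80.8% and 84% of triple-positive cells and in at most 24.3% of the other classes shown. The other 4 genes were rarest in the triple-positive cells among these classes. Cells with 2 markers are not shown as a class. Under the same limits their summed Prrx1 was at 543 and 290 CPM, against 569 and 458 CPM in triple-positive cells (without TMM). Marker-free cells can also be in the Rspo3 class or the telocyte gate.

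The 37 tested genes of a list of HOX and other position-related transcription factors held 2 called higher and 4 called lower, beside 0.936% and 0.978% of all genes, and 7 and 8 with the block, beside 4.91% and 5.5%, with a median log2 fold change of 0.15 (0.48 with the genes at 0 UMIs set to the bound of 3 counts), beside -0.06 (-0.01) over all genes. The 4 lower ones are those above. Of the higher ones, Tbx3, a T-box repressor, was at 24.9 and 23.5 CPM against 7.84 and 6.99 CPM (1.71 ± 0.20, adjusted p = 0.0305). It missed the threshold with equal limits (adjusted p = 0.054, and 0.000335 with the block). No HOX gene was called without the block. With it Hoxb6, Hoxb7, Hoxb8 and Hoxb9 were called higher (adjusted p = 0.0353, 0.000338, 0.0236 and 0.0328) and Hoxd13 lower (0.0455), and with equal limits and the block Hoxb7 (0.00164) and Hoxd13 (0.012) stayed called among these, which were named after their values were seen. Hoxb7 was at 32.3 and 28.0 CPM against 12.7 and 9.46 CPM (adjusted p = 0.0593, and 0.000338 with the block). Hoxa10 was at 37.9 and 33.4 CPM against 48.8 and 54.4 CPM (adjusted p = 0.171, and 0.0776 with the block).

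Among the genes that stood lowest, several encode secreted factors. Ccl11, the eosinophil chemoattractant eotaxin-1, was at 188 and 161 CPM against 1435 and 1469 CPM (log2 fold change -3.06 ± 0.13, adjusted p = 0.00557). Bmp4, a BMP ligand that was not part of the rule, was at 43.4 and 18.1 CPM against 213 and 292 CPM (-3.04 ± 0.38, adjusted p = 0.0332). Mfap4, an extracellular glycoprotein of elastic fibres, was at 26.8 and 26.2 CPM against 134 and 224 CPM (-2.76 ± 0.33, adjusted p = 0.0321). The groups did not overlap, which was a condition for the choice of these genes. Ces1f, a carboxylesterase, showed the largest fall, at 9.24 and 4.52 CPM against 165 and 157 CPM (-4.56 ± 0.25, adjusted p = 0.0117), and Fhl1, a LIM-domain protein, fell by 2.37 on the log2 scale (adjusted p = 0.0154). With equal limits on both classes, Ccl11, Mfap4, Ces1f and Fhl1 stayed called, and Bmp4 was not (adjusted p = 0.0724, and 6.54e-08 with the block).

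Cell cycle genes were low as well, and here the choice of cells bears on the value. Of 18 genes of a cell cycle list, none was called higher and 8 were called lower, beside 0.978% of all genes, and 14 with the block, beside 5.5%, with a median of -1.38. Cenpf, a kinetochore protein, was at 12.9 and 16.3 CPM against 172 and 140 CPM, Ube2c, a ubiquitin-conjugating enzyme of mitotic exit, at 36.0 and 27.1 CPM against 291 and 208 CPM, and Ccnb1, cyclin B1, at 5.54 and 11.8 CPM against 65.5 and 54.7 CPM. When the limits on cycling and BMP genes were both applied to the marker-free class, none of the 18 was called and the median was -0.13, and with the block 1 was called lower (Cenpf, adjusted p = 0.0355). The limits were not applied 1 at a time. The log2 differences were then -0.96 for Cenpf, -0.26 for Ube2c, -0.72 for Ccnb1, -0.15 for the spindle protein Prc1 and -0.52 for Tpx2. Tmem158, a membrane protein, went from -2.13 ± 0.16 to -1.08 (adjusted p = 0.101, and 0.00302 with the block).

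**Figure D3:**
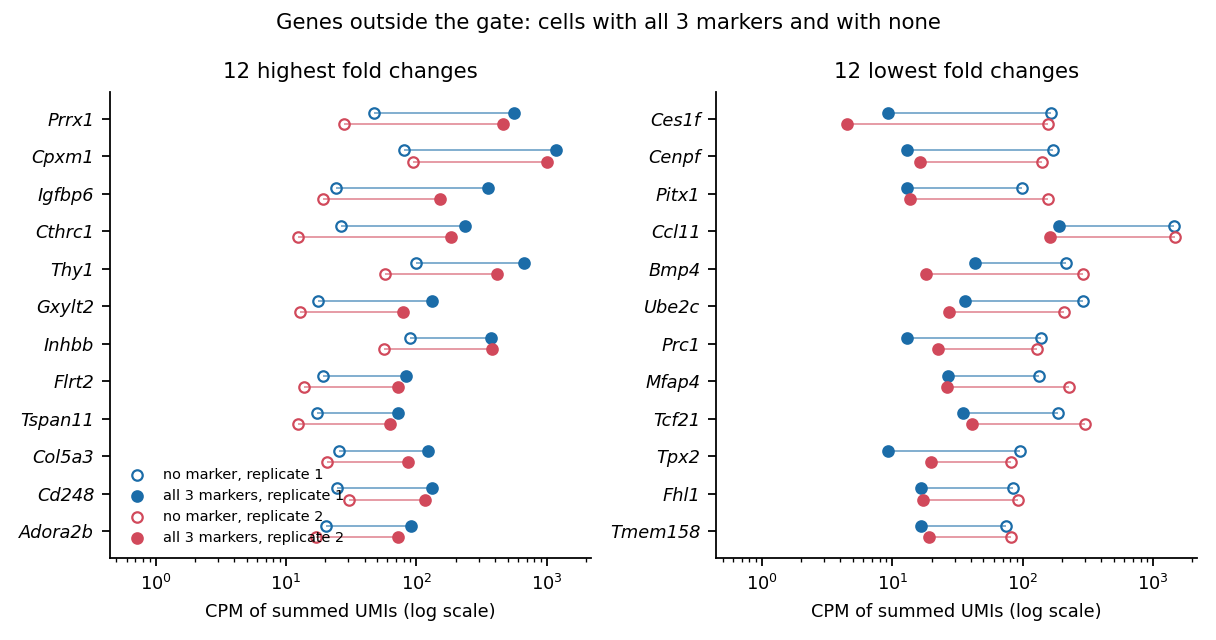
CPM of summed UMIs, on a log scale, for the 12 genes with the largest rise and the 12 with the largest fall among the called genes whose log2 CPM averaged 5 or more, with filled points for the triple-positive and open points for the marker-free fibroblasts of each library. The genes were chosen to have no overlap between the filled and the open points. Cenpf, Prc1, Ube2c and Tpx2 are cell cycle genes, whose log2 difference was between -0.96 and -0.15 once the limits on cycling and BMP genes were applied to the marker-free class too.

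Genes of the fibres to which Mfap5 belongs were called in both directions. Of 18 tested genes of microfibrils and elastic fibres, 1 was called higher and 1 lower (0.936% and 0.978% of all genes), 6 and 6 with the block (4.91% and 5.5% of all genes), and the median log2 fold change was -0.03. The higher one was Emilin2, an elastin microfibril interface protein, at 130 and 111 CPM against 43.8 and 40.4 CPM (1.52 ± 0.14, adjusted p = 0.0216), and the lower one was Mfap4. Of 22 collagen genes, Col5a3 alone was called, and 9 were called higher and 2 lower with the block (median 0.29, and 0.34 with bounds). Col12a1, a fibril-associated collagen named after its values were seen, was at 407 and 300 CPM against 166 and 90.3 CPM (1.47 ± 0.33, adjusted p = 0.11, and 1.98e-07 with the block).

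Of 27 proteases and inhibitors, 4 were called higher (0.936% of all genes) and 1 lower (0.978%), 10 and 4 with the block (4.91% and 5.5% of all genes), with a median of 0.31. Mmp3, the matrix metalloproteinase stromelysin-1, was at 2711 and 2620 CPM against 692 and 589 CPM (2.06 ± 0.13, adjusted p = 0.0129). Serpinf1, the secreted serpin PEDF, was at 617 and 469 CPM against 167 and 164 CPM (1.72 ± 0.16, adjusted p = 0.0235). Timp1, an inhibitor of metalloproteinases, was at 1170 and 919 CPM against 412 and 289 CPM (1.58 ± 0.22, adjusted p = 0.0418). Of the related inhibitors, named after their values were seen, Timp3 was at 91.5 and 31.6 CPM against 96.4 and 66.3 CPM and was not called. Adamts15, a protease of proteoglycans, rose by 1.72 ± 0.13 (adjusted p = 0.0184), and Adamts4, of the same family, fell by 1.44 ± 0.18 (adjusted p = 0.0327). Of 24 proteoglycan and matricellular genes none was called, and 12 were called higher and 4 lower with the block (median 0.41, and 0.42 with bounds). With equal limits and the block, 7 of them were called higher and 4 lower, beside 4.57% and 3.9% of all genes. The proteases and inhibitors then held 7 higher and 5 lower, and the median with equal limits was 0.11 for each list. With equal limits, Serpinf1, Timp1 and Adamts4 missed the threshold (adjusted p = 0.0535, 0.0648 and 0.0883) and passed it with the block (3.75e-08, 8.7e-11 and 0.00139).

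Osteopontin, encoded by Spp1 on chromosome 5 at 104435118 to 104441050 on the plus strand, is a matricellular glycoprotein. Its gene was at 9374 and 4360 CPM in the triple-positive cells and at 311 and 69.3 CPM in the marker-free cells. All triple-positive values lay above the others, but within each class the first library stood far above the second. The log2 fold change of 5.17 ± 0.87 missed the threshold (adjusted p = 0.0593) and passed it with the library as a block (adjusted p = 1.83e-12). It was found in 51 of 52 and 45 of 50 cells, with 17.2% and 15% of the UMIs from the highest cell. At 5000 UMIs it was found in 86.5% and 78% of triple-positive and in 28.7% and 11% of marker-free cells, beside 23.2% and 12.5% of cells without Col1a2. Cck, the peptide hormone cholecystokinin, was at 2085 and 1097 CPM against 321 and 159 CPM (2.73 ± 0.46, adjusted p = 0.0593, and 1.59e-12 with the block), and was found in 31 and 28 cells, with 20.5% and 36.2% of the UMIs from the highest cell. Spp1 and Cck were named after their values had been seen.

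Genes of retinoic acid handling were measured beside Crabp1. Of 16 tested, none was called, and 5 were called higher and 3 lower with the block, beside 4.91% and 5.5% of all genes (median 0.09, 0.18 with bounds and -0.04 with equal limits). Stra6, the receptor for the retinol carrier, was at 78.5 and 36.1 CPM against 5.28 and 1.24 CPM (4.14 ± 0.82, adjusted p = 0.0825, and 3.94e-08 with the block), with UMIs in 20 and 15 cells. Aldh1a2, which makes retinoic acid, was at 72.1 and 18.1 CPM against 257 and 153 CPM (-2.19 ± 0.57, adjusted p = 0.145, and 6.01e-07 with the block). In each library Stra6 was thus higher and Aldh1a2 lower, by amounts that differed between the libraries. The difference in Aldh1a2 depended on the comparison cells, since it was -0.95 with equal limits (adjusted p = 0.659, and 0.000496 with the block) and -0.50 against the fibroblasts with Rspo3 UMIs (adjusted p = 0.822), while fibroblasts with UMIs in at least 2 of Bmp2, Bmp5, Bmp7 and Adamdec1 held 557 and 388 CPM. Rarb, a retinoic acid receptor, was at 37.9 and 28.9 CPM against 19.5 and 13.5 CPM (adjusted p = 0.156, and 0.00332 with the block). These 3 genes were named after their values had been seen.

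Among 44 tested genes of the TGF-beta and BMP pathways, to which Gdf10 belongs, 2 were called higher and 2 lower, beside 0.936% and 0.978% of all genes, and 6 and 6 with the block, beside 4.91% and 5.5%, with a median of 0.02 (0.04 with bounds, -0.06 with equal limits). Of the ligands, Inhbb rose and Bmp4 fell, as given above. Bmp1, a protease that matures procollagens, was at 132 and 160 CPM against 70.6 and 65.5 CPM (1.10 ± 0.14, adjusted p = 0.0348). Of the receptors, Acvrl1, the type I receptor ALK1, was at 35.1 and 37.1 CPM against 78.4 and 77.7 CPM (-1.11 ± 0.13, adjusted p = 0.0322). Of the antagonists, Grem1 was at 666 and 804 CPM against 785 and 639 CPM, so that the classes overlapped (0.05 ± 0.16, adjusted p = 0.915), and with equal limits and the block its difference was -0.37 (adjusted p = 0.0309). With equal limits Inhbb stayed called (adjusted p = 0.0386), and Bmp1 and Acvrl1 did not (0.0883 and 0.062, and 8.16e-05 and 0.000181 with the block).

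Markers of crypt niche fibroblasts were read from a trophocyte and a telocyte list. Of all genes, 0.936% were called higher and 0.978% lower, and 4.91% and 5.5% with the block. With equal limits and the block these shares were 4.57% and 3.9%. Of 15 trophocyte genes, Il6 alone was called, at 41.6 and 24.4 CPM against 9.31 and 9.74 CPM (1.79 ± 0.27, adjusted p = 0.0467, and 0.124 with equal limits, 0.000486 with the block added), and 6 were called higher and 4 lower with the block (median 0.05). With equal limits and the block 4 were called higher and 7 lower, and the median with equal limits was -0.37. Cd81, a tetraspanin used to sort trophocytes, was at 868 and 636 CPM against 405 and 326 CPM (adjusted p = 0.0765, and 6.87e-07 with the block). Cd34, which the paper pairs with Cd81 as a trophocyte marker, went the other way, at 8.31 and 14.5 CPM against 27.9 and 30.5 CPM (adjusted p = 0.0766, and 0.00248 with the block). Rspo3, an enhancer of Wnt signals, was at 77.6 and 85.9 CPM against 106 and 141 CPM (adjusted p = 0.199, and 0.011 with the block). Ackr4 had no UMI in any triple-positive cell, against 12.3 and 2.52 CPM (adjusted p = 0.39, and 0.00209 with the block). In the second library a level like that of the marker-free cells could also give 0 UMIs at this depth. Of 14 telocyte genes outside the rule, Bmp4 and the growth factor Nrg1 were called lower, Nrg1 at 126 and 155 CPM against 319 and 284 CPM (-1.10 ± 0.15, adjusted p = 0.0412). With the block 1 was called higher and 4 lower. The median of that list was -1.31, and -0.48 with bounds. With equal limits it was -0.60 over 12 tested genes, and with the block added 1 was called higher and 4 lower. Bmp4 and Nrg1 both lost the call with equal limits on BMP and cycling genes in both classes (adjusted p = 0.0724 and 0.352, and 6.54e-08 and 0.0197 with the block). Cd81, Cd34, Rspo3 and Ackr4 were named after their values had been seen.

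Other lists follow, beside the same shares of all genes (0.936% higher and 0.978% lower, and 4.91% and 5.5% with the block). Of 18 adventitial genes, Igfbp6 alone was called, and 3 were called higher and 5 lower with the block (median -0.18, and 0.22 with equal limits). Cd34, a surface protein of adventitial fibroblasts, was at 8.31 and 14.5 CPM against 27.9 and 30.5 CPM (-1.36 ± 0.26, adjusted p = 0.0766, and 0.00248 with the block). Of 15 genes of the IGF system, Igfbp6 rose and Pappa, a protease that frees IGF from its binding proteins, fell by 1.45 ± 0.17 (adjusted p = 0.0322, and 0.189 with equal limits, 0.000196 with the block added), with a median of -0.33 and 1 called higher and 5 lower with the block. Of 22 chemokines, cytokines and their receptors, Il6 and Il1rl1 rose and Ccl11 fell (5 higher and 8 lower with the block, median -0.02). Il1rl1, the receptor of interleukin-33, was at 47.1 and 73.2 CPM against 10.9 and 8.01 CPM (2.67 ± 0.28, adjusted p = 0.0258), but its UMIs came from 13 cells in each library, with 35.3% and 58% from the highest one. Its difference was 4.91 with equal limits (adjusted p = 0.00628) and 0.88 against the BMP-positive fibroblasts (adjusted p = 0.0531, and 0.00582 with the block), so its size depended on the comparison cells. Of 19 genes of perivascular and fat progenitors, Prrx1 rose, and Cebpa, a factor of fat cell formation (-1.69 ± 0.24, adjusted p = 0.0448), and the hedgehog receptor Ptch1 (-1.47 ± 0.18, adjusted p = 0.0325, and 0.077 with equal limits, 0.000192 with the block added) fell (3 higher and 7 lower with the block, median -0.15, and -0.11 with bounds). None was called among 35 Wnt, 14 complement, 13 contractile, 16 hypoxia, 15 interferon and 20 immediate early genes, of which 2, 4, 3, 0, 0 and 4 were called higher and 3, 1, 2, 1, 4 and 8 lower with the block. Their medians were -0.15 (0.06 with bounds), -0.18, 0.57, -0.02, -0.28 and -0.21.

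No gene of the lists for other cell types was called. With the block none was called higher, and 1 endothelial, 3 neuronal, 1 pericyte and 1 Cajal cell gene were called lower. In CPM scaled to the summed UMIs alone, the 10 endothelial genes summed to 23.5 and 22.4 CPM against 37.9 and 51.8 CPM in marker-free fibroblasts, with 5 genes at 0 and Pecam1 among them. The 8 glial genes summed to 0 and 1.79 CPM against 5.28 and 4.2 CPM, with 7 at 0 including Sox10. The 10 macrophage and immune genes summed to 11.3 and 4.48 CPM against 6.03 and 34.0 CPM, with 7 at 0 including Ptprc. The 13 epithelial genes, 3 of them at 0, summed to 70.4 and 18.8 CPM against 91.2 and 25.8 CPM. The 9 neuronal genes, 5 at 0, summed to 14.1 and 8.06 CPM against 39.4 and 40.0 CPM, the 7 pericyte genes, 2 at 0, to 144 and 210 CPM against 240 and 171 CPM, the 4 genes of interstitial cells of Cajal, 2 at 0, to 54.4 and 38.5 CPM against 98.9 and 62.6 CPM and the 8 mesothelial genes, 4 at 0, to 3.75 and 1.79 CPM against 3.65 and 0.664 CPM. Pdgfra, a receptor that marks many gut fibroblasts, was at 292 and 314 CPM against 189 and 252 CPM (0.46 ± 0.17, adjusted p = 0.259, and 0.0106 with the block).

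The levels changed in steps with the number of markers in a cell. CPM here were scaled to the summed UMIs alone, without TMM, so the values with 3 markers differ slightly from those above. Fibroblasts that kept the same limits on BMP and cycling genes were split into those with 0, 1, 2 or 3 markers, which gave 3029, 1072, 372 and 52 cells in the first library and 4403, 1157, 322 and 50 in the second. Prrx1 was at 59.8, 222, 543 and 569 CPM in the first library and at 33.7, 135, 290 and 458 CPM in the second. Cpxm1 went from 115 to 292, 779 and 1200 CPM and from 130 to 246, 428 and 999 CPM. Tcf21 went the other way, from 164 to 96.2, 55.1 and 35.7 CPM and from 291 to 168, 85.3 and 40.3 CPM. Of the 12 genes with the largest rise, 11 rose at every step in both libraries, and of the 12 with the largest fall, 7 fell at every step. These genes were chosen for their difference between no marker and 3, which sets the ends of the steps. Over all 14314 tested gene symbols outside the rule, 745 (5.2%) rose and 584 (4.08%) fell at every step in both libraries. Cells with 2 markers were just outside the rule, and their values of Prrx1, Cpxm1 and Tcf21 lay between those of cells with 1 and with 3 markers. Triple-positive cells that held only 1 UMI of some marker had 541 and 441 CPM of Prrx1 and 1022 and 609 CPM of Cpxm1. These values are a description, since cells with more markers were also deeper.

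**Figure D4:**
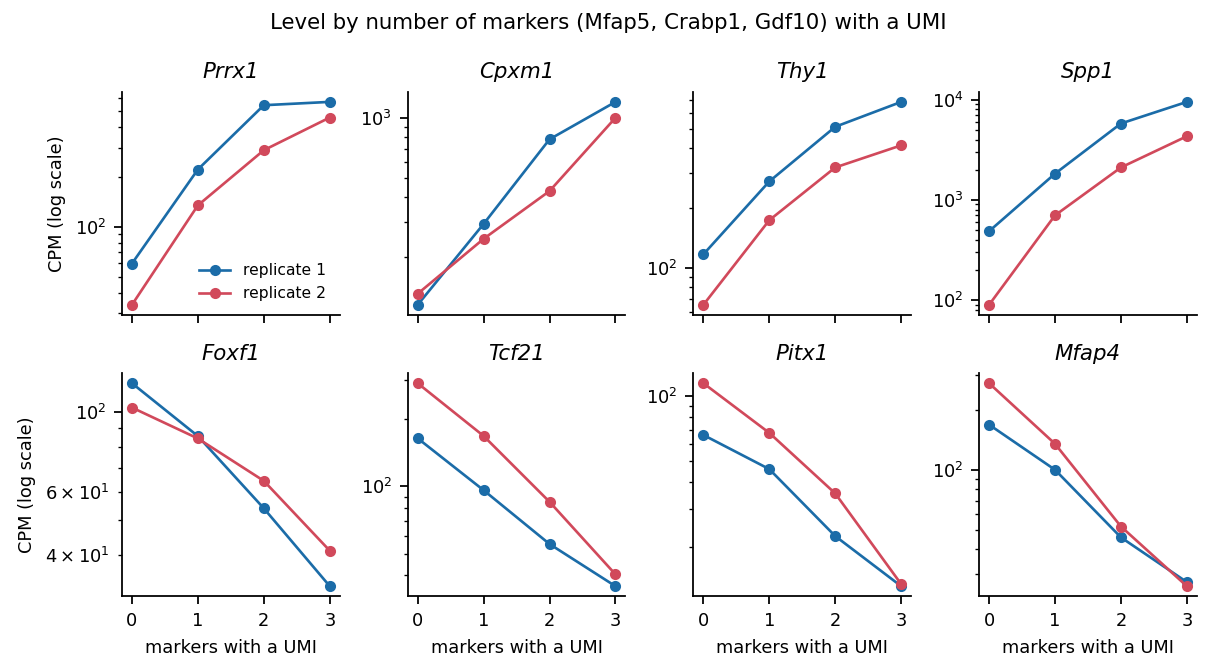
CPM, on a log scale, of Prrx1, Cpxm1, Thy1, Spp1, Foxf1, Tcf21, Pitx1 and Mfap4 in fibroblasts with 0, 1, 2 or 3 of the markers, all held to the limits on BMP and cycling genes, with a line for each stromal library. Prrx1, Cpxm1, Thy1 and Spp1 climb with each marker, and Foxf1, Tcf21, Pitx1 and Mfap4 descend in both libraries.

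Fibroblasts with Rspo3, a gene of crypt base fibroblasts, were taken as a further comparison. The Rspo3 class held the 2691 and 4230 other fibroblasts with at least 1 Rspo3 UMI under the same limits on BMP and cycling genes, including cells with 1 or 2 of the markers. Against it, 23 of 14413 genes were called higher (0.16%) and 22 lower (0.153%), together 0.312%, and 388 (2.69%) and 293 (2.03%) with the block, together 4.72%. Cpxm1 was at 233 and 198 CPM in the Rspo3 class and 2.34 ± 0.15 higher in the triple-positive cells on the log2 scale (adjusted p = 0.0198). Tspan11 was at 14.8 and 10.0 CPM there (2.44 ± 0.28, adjusted p = 0.0384), Nav3, a neuron navigator protein, at 23.3 and 24.1 CPM against 70.2 and 76.8 CPM (1.63 ± 0.16, adjusted p = 0.0311) and Angptl4, a secreted inhibitor of lipoprotein lipase, at 44.7 and 48.4 CPM against 144 and 127 CPM (1.54 ± 0.13, adjusted p = 0.029). Cd248, Mmp3 and Emilin2 were called higher there too (adjusted p = 0.029, 0.0384 and 0.0483). Prrx1 was at 139 and 78.5 CPM in the Rspo3 class, below both triple-positive values, with a difference of 2.23 ± 0.45 that was not called (adjusted p = 0.132, and 3e-05 with the block).

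Of the genes that were lower than in the Rspo3 class, Mfap4 was at 153 and 229 CPM there (log2 difference -2.85 ± 0.32, adjusted p = 0.0384). Fhl1 was at 65.4 and 66.8 CPM (-1.97 ± 0.18, adjusted p = 0.029), and Enpp2, the enzyme autotaxin that makes lysophosphatidic acid, at 320 and 310 CPM against 110 and 78.6 CPM (-1.74 ± 0.17, adjusted p = 0.0304). Ces1f, Ccl11 and Foxf1 were also called lower (-3.20 ± 0.28, -1.58 ± 0.14 and -1.42 ± 0.14), and Tcf21, Pitx1 and Nkx2-3 were not (adjusted p = 0.0908, 0.0908 and 0.102). The last 3 passed with the block.

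The telocyte gate held the 1227 and 1686 fibroblasts with UMIs in at least 2 of Bmp2, Bmp5, Bmp7 and Adamdec1, which the rule kept out of the triple-positive class. Against it 501 of 14414 genes were called higher (3.48%) and 704 lower (4.88%), together 8.36%, and 1088 (7.55%) and 1272 (8.82%) with the block, together 16.4%. The gate kept cycling cells, with Top2a, a gene of the rule, at 382 and 368 CPM against 37 and 47.9 CPM. Of 18 cell cycle genes, 15 were called lower than in it. The rule had removed such cells from the triple-positive class but not from the gate, which bears on these calls. No fit with equal limits on cycling genes was run against the gate. Cpxm1 was at 60.7 and 52.8 CPM in the gate (4.27 ± 0.17 higher in triple-positive cells, adjusted p = 0.000704) and Prrx1 at 57.6 and 24.3 CPM (3.64 ± 0.48, adjusted p = 0.0105). Gm12840, a predicted gene, was at 25.0 and 8.25 CPM against 259 and 126 CPM (3.54 ± 0.64, adjusted p = 0.0255). Ces1f, Ccl11 and Bmp4 showed the largest falls, by 5.63, 4.08 and 3.84 on the log2 scale. The triple-positive sums are shared by these comparisons, so they are not independent of each other. The comparison classes also overlap, since marker-free cells that met the limits of the Rspo3 class or the telocyte gate were counted there too. Of the trophocyte list, 6 genes were called higher and none lower than in the gate, among them Mgp, a matrix protein that inhibits BMPs, at 252 and 194 CPM in the gate and 1461 and 816 CPM in the triple-positive cells (2.35 ± 0.29, adjusted p = 0.00913), a gene named after its values were seen. Mgp was at 812 and 854 CPM in the Rspo3 class and was not called against it (0.45 ± 0.28, adjusted p = 0.541, and 0.237 with the block). Against the marker-free cells its difference was 1.09 ± 0.29 (adjusted p = 0.15, and 0.000385 with the block).

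No triple-positive cell was found among the 341 fibroblasts that the same limits on Col1a2 and Epcam found in the assembloid epithelial libraries, which allows a share of up to 0.88%. The share in the stromal libraries was below that bound, so these 341 cells could not show a difference.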

How the data were processed

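Single-cell libraries were made with the 10x Genomics 3' assay. The deposited values are raw UMI counts per gene and barcode, which the authors made with Cell Ranger (6.0.1 for the stroma per the file headers, 7.1.0 for the epithelium) on mm10 and to which no normalization had been applied. The members, lists and tests were chosen with earlier results of these data known. Of 32285 gene identifiers, 32235 were found in GENCODE M21 (GRCm38), the source of gene positions. The 3' counts carry no sequence, so none is shown.

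UMIs were summed per class and library, which gave 1064981 and 1116435 UMIs for the triple-positive and 74230496 and 91863091 for the marker-free cells, and tested with edgeR 4.0.16 (TMM, filterByExpr, quasi-likelihood, Benjamini-Hochberg adjusted p under 0.05) in R 4.3.3. The 11 genes of the rule were left out, as was Rspo3 against its own class. Each class has 2 sums, which come from cultures of 2 mice, and the residual spread has 2 degrees of freedom. Since classes of a library share that library, the block pairs them by design, and the deviations of triple-positive and marker-free sums from their class means correlated at 0.255 across genes. In simulated counts, edgeR recovered 99% of genes changed 4-fold and 39% of those changed 2-fold between triple-positive and marker-free cells. This was among 14120 genes, with 8 false calls. Against the Rspo3 class the shares were 97% and 23%, and against the telocyte gate 97% and 32%. The fit with the block was not simulated. The changed genes were drawn from those of higher counts, with the same spread for all genes and no difference between libraries. Recovery of genes with low counts or with differences between libraries was thus not measured.

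The text names the 12 genes with the largest rise and the 12 with the largest fall that were called, averaged a log2 CPM of 5 or more and did not overlap between classes, up to 4 called genes of each list (log2 CPM of 3 or more), and the 3 highest and 3 lowest against each other class. Of the others, Grem1, Pdgfra, Hoxa10, Tbx3 and Adamts4 were also named after their values were seen. The rest are marked where they appear. Intervals and limits from a count of 0 (3 counts) cover counting error only. Scrublet in scanpy 1.11.5 called 0 cells, so doublets remain, and leaving out the highest 6% of its scores was an alternative. Other alternatives were DESeq2 1.42.0 and its size factors, no filter on low counts, the block, equal limits for both classes, at most 5% mitochondrial UMIs, at least 1000 genes or 5000 UMIs per cell, each library left out and stricter marker rules. Python 3.11.15, numpy 2.4.6, scipy 1.17.1, pandas 2.3.3 and matplotlib 3.10.9 were used. Cells of the epithelial libraries held no member and entered no fit. Some genes are not reported here, although the fits and the counts of list genes include them.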

Additional observations from a re-analysis of the deposited data

How the results depend on the processing

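The 24 genes with the largest changes kept their direction under the settings, and the number of calls did not hold. Some genes without a call changed direction, such as Grem1, at -0.24 in the first library alone and 0.33 in the second. Against marker-free fibroblasts, 274 genes were called, 989 with DESeq2, 1090 without a filter on low counts, 1490 with the replicate block, 458 with at most 5% mitochondrial UMIs, 84 with comparison cells held to the members' limits and 1153 with that limit and the block together, an alternative added after seeing the data. At an unadjusted p under 0.05 the count was 2589. Against the Rspo3 class, 45 genes were called, 405 with DESeq2, 628 without the filter and 681 with the replicate block. Against the telocyte gate, 1205 were called, 1858 with DESeq2, 2209 without the filter and 2360 with the replicate block. The block left 1 residual degree of freedom in the first comparison and 2 in the others. Of the 24 genes with the largest changes, 14 stayed called under equal limits and 10 missed the threshold, and with the block added 21 stayed called. Grem1 went from 0.05 to -0.37 (adjusted p = 0.0309) with equal limits and the block together. The cause of these changes in number was not tested.

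The share of triple-positive cells moved from 0.735% and 0.589% to 0.31% and 0.146% when the rule was read at 5000 UMIs per cell and to 0.198% and 0.200% with at least 2 UMIs of each marker. These rules left 21 and 12, and 14 and 17, cells, and fits on them could not be run with the minimum of 20 cells per library. With 1 library left out, no residual degree of freedom remains, so the fits gave values and no calls. Fits that hold epithelial libraries, and a test of whether the stromal and epithelial fractions differ, could not be run, since these libraries held no triple-positive cell. Depth limits all low genes, since the triple-positive sums hold 1064981 and 1116435 UMIs.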

Other observations

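Several genes of lower level, below a mean log2 CPM of 5, were called higher in the triple-positive than in the marker-free fibroblasts, and were chosen here after their values were seen. Mitf, a basic helix-loop-helix factor best known from pigment cells, was at 60.1 and 62.4 CPM against 5.54 and 5.72 CPM (log2 fold change 3.44 ± 0.14, adjusted p = 0.00557 in edgeR's quasi-likelihood test) and was found in 27 cells of each library. It was also called against the Rspo3 class (2.25 ± 0.14, adjusted p = 0.0198) and the telocyte gate (3.48 ± 0.14, adjusted p = 0.000704). The nonagouti gene a, which encodes the agouti signalling protein of the hair follicle, was at 40.7 and 25.3 CPM against 0.870 and 0.464 CPM (5.63 ± 0.45, adjusted p = 0.0198), in 22 and 13 cells. Cldn11, a claudin, was at 71.1 and 37.1 CPM against 1.89 and 1.15 CPM (5.16 ± 0.42, adjusted p = 0.0198), in 19 and 16 cells.

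Adam33, a membrane metalloproteinase, was at 23.1 and 33.4 CPM against 0.642 and 0.729 CPM (5.36 ± 0.32, adjusted p = 0.0122). Eya4, a transcriptional cofactor, was at 11.1 and 20.8 CPM against 0.95 and 0.872 CPM (4.13 ± 0.42, adjusted p = 0.0258), in 9 and 12 cells. Each of these genes had a UMI in fewer than 30 of the triple-positive cells of a library. At these levels a cell without a UMI may still express the gene. Mcpt8, a protease of basophils and mast cells, was at 203 and 23.5 CPM against 8.60 and 1.41 CPM (adjusted p = 0.154, and 1.84e-10 with the library as a block), with 76.9% of its UMIs in the second library from 1 cell.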
